A study of Mus musculus with 8 samples.

Results

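Transcripts of oligodendrocytes, the glial cells that wrap axons in myelin, were followed in 8 libraries of flow-sorted astrocytes. The 31 genes were chosen by name as markers of the oligodendrocyte lineage and matched by Ensembl identifier, and all 31 were found among the 55417 gene rows of each count table. They comprise 23 genes of mature, myelin-forming cells, the 3 lineage transcription factors Sox10, Olig1 and Olig2, and 5 genes of precursors and newly formed cells (Pdgfra, Cspg4, Enpp6, Bcas1 and Gpr17). The cells were wild type (WT) and came from mice at postnatal day 29. The study compared cortical with subcortical tissue, and mice 1 to 4 each gave a cortical and a subcortical library, so that each region had 4 libraries. Mice 2 and 3 were female and mice 1 and 4 male. The sorting gate, the reporter if any, the mouse strain and the exact extent of the subcortical tissue are not given in the sources used here. Each count table has a row named Tdtomato, with 0 counts in all 8 libraries.

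Oligodendrocytes arise from precursors that carry the platelet-derived growth factor receptor Pdgfra and the proteoglycan Cspg4 (NG2), pass through a short-lived premyelinating state marked by Gpr17, Enpp6 and Bcas1, and then switch on myelin genes under Sox10 and Myrf. Myelin is rich in galactolipids and in a small set of abundant structural proteins. Both Olig2 and Cspg4 are known outside the lineage, Olig2 in some astrocytes and Cspg4 in the mural cells of blood vessels. Myelin is denser in much of the subcortical brain than in cortical grey matter.

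Counts of genes summed to between 3.54 and 4.06 M per cortical library and between 2.48 and 3.83 M per subcortical library. Levels are CPM, counts scaled to a common library total, with each library's size adjusted by the trimmed mean of M-values (TMM). The libraries read transcript 3′ ends, so that a CPM does not grow with transcript length. A count of 0 in a library allows a level of up to 0.70 to 1.43 CPM, for counting error only. The 12 astrocyte markers were found in every library and summed to 35420 ± 948 CPM in cortical libraries and 26560 ± 973 CPM in subcortical libraries (SD, n = 4 each). Among them Slc1a3, a glutamate transporter gene, was higher in cortical libraries (edgeR adjusted p = 1.1e-06) and Aqp4, the water channel gene of astrocyte endfeet, lower (edgeR adjusted p = 7.2e-05). Values of single libraries are given in the order of mice 1, 2, 3 and 4.

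Mature oligodendrocyte genes were a small part of every library and were lower in cortical than in subcortical ones. Summed over the 23 genes, they came to 943, 840, 885 and 1003 CPM in cortical libraries, against 2532, 1401, 2048 and 1314 CPM in subcortical libraries. All 4 cortical sums lay below all 4 subcortical sums, and the mean of 918 ± 70.6 CPM in cortical libraries was 0.503 of the mean of 1824 ± 575 CPM in subcortical libraries (SD, n = 4 each). Relative to the summed astrocyte markers, the mature genes stood at 2.68, 2.29, 2.51 and 2.91% in cortical libraries, against 9.24, 5.44, 7.48 and 5.12% in subcortical libraries. The astrocyte sum was itself higher in cortical libraries, which widens this gap. Of its 12 markers, 3 were called higher there (Slc1a2, Slc1a3 and Glul) and 2 lower (Aqp4 and Ndrg2). Over all tested genes, 3.57% were called higher and 3.58% lower. In RNA from pooled cells, fewer cells of a type and less RNA per cell cannot be told apart.

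**Figure D1:**
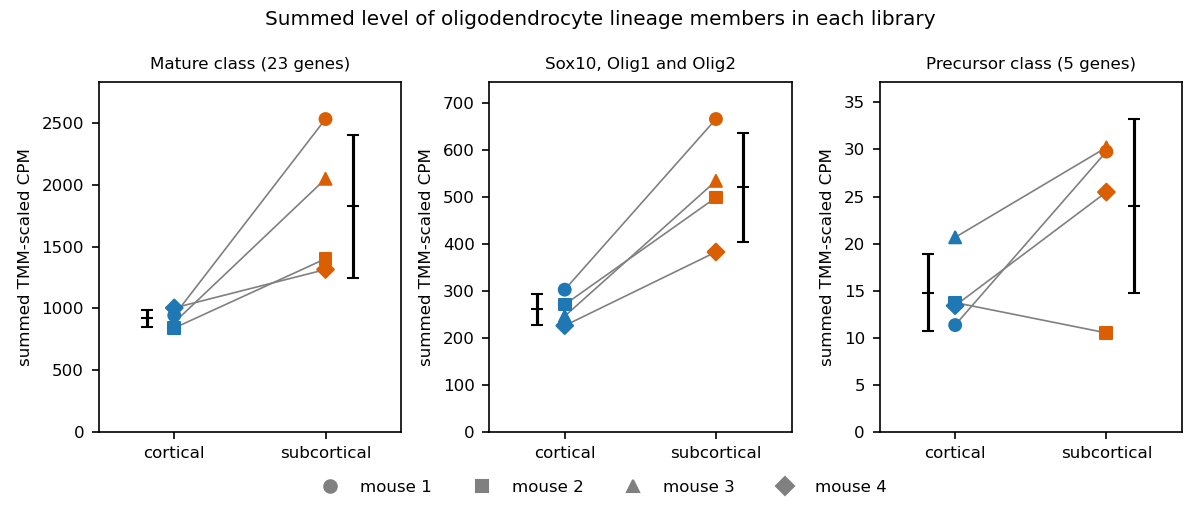
Summed TMM-scaled CPM (vertical axis, from 0) of the 23 mature genes, of Sox10, Olig1 and Olig2, and of the 5 precursor genes in cortical (left, blue) and subcortical (right, orange) libraries. Symbols mark the mouse, grey lines join the 2 libraries of a mouse, and black bars give the mean ± SD of 4 libraries. The mature sums lie between 840 and 1003 CPM in cortical libraries and between 1314 and 2532 CPM in subcortical ones.

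Of the 31 genes, 28 had enough counts to be tested. By edgeR's quasi-likelihood test with Benjamini-Hochberg adjustment over all 11781 tested genes, 17 of these 28 fell in cortical libraries, 0 rose and 11 were not called. Over all tested genes, 3.58% were lower and 3.57% higher in cortical libraries. The 17 comprised 14 of 22 tested mature genes, 2 of the 3 lineage factors and 1 of 3 tested precursor genes. The unadjusted p was under 0.05 for 18 of the 28. The median log2 fold change, cortical minus subcortical, was -1.21 for the mature genes, -0.86 for the lineage factors, -0.78 for the precursor genes and -0.01 over all tested genes. In 14 of the 28 all 4 cortical libraries lay below all 4 subcortical ones, against 5.64% of all tested genes. The cortical library was the lower one in all 4 mice for 20 of the 28, against 13.1% of all tested genes. Genes detected mainly in subcortical libraries could pass the count filter only through them, so these counts describe the list and test nothing about it. Leaving out subcortical 1 left 8 mature genes called, and leaving out cortical 2 or subcortical 3 left 9 in each case.

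**Figure D2:**
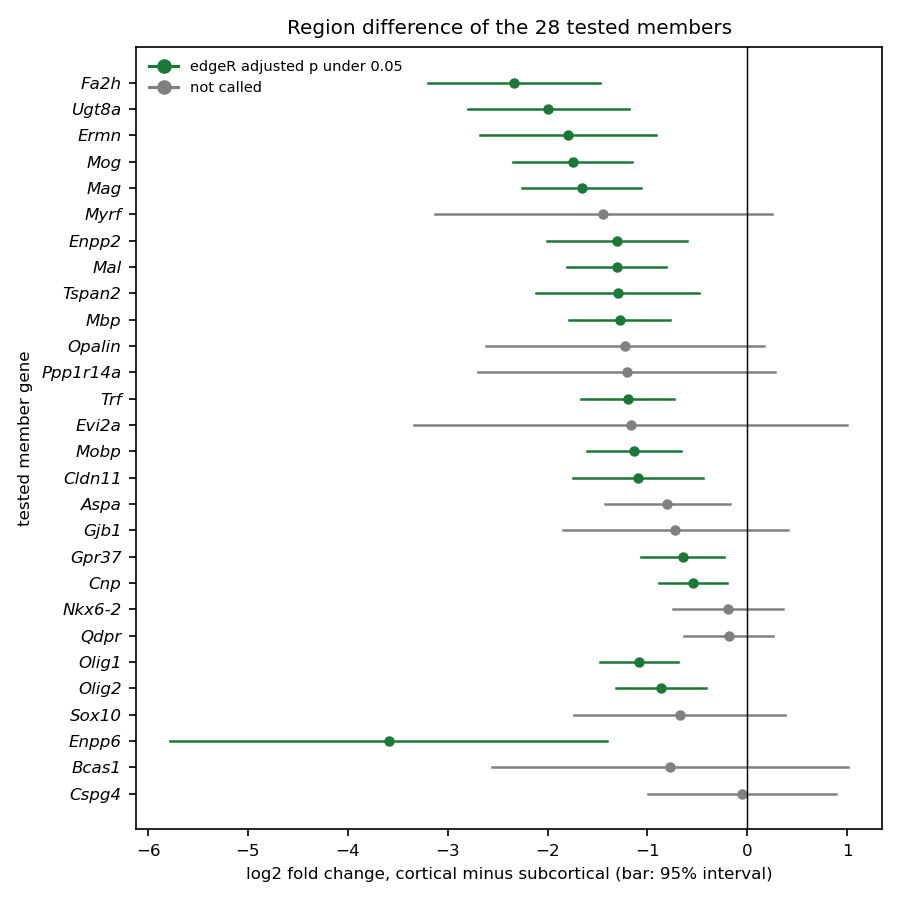
Log2 fold change, cortical minus subcortical (horizontal axis), with its 95% interval for the 28 tested genes, ordered by class and size. Green marks an edgeR adjusted p under 0.05 and grey the 11 genes that were not called. All 28 fitted values are below 0, from -3.59 for Enpp6 to -0.05 for Cspg4.

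Mbp, Mobp and Cnp, structural or abundant proteins of myelin, were each lower in cortical libraries. Mbp (myelin basic protein, ENSMUSG00000041607), which holds the cytoplasmic faces of the membrane together, stood at 47.8, 45.3, 49.4 and 52.9 CPM in cortical libraries, against 172, 75, 149.7 and 77.8 CPM in subcortical libraries (log2 fold change -1.28, SE 0.24, edgeR adjusted p = 0.00094). Its cortical values were close to each other, and every subcortical value was higher than all of them. Mobp, a smaller basic protein of the same compartment, stood at 45.4, 61.7, 31.8 and 59.4 CPM in cortical libraries, against 127, 122, 107 and 79.7 CPM in subcortical libraries (log2 fold change -1.13, SE 0.23, edgeR adjusted p = 0.0016). Here too the groups did not overlap, and subcortical 4 was the lowest of its region. Cnp, which encodes a phosphodiesterase that keeps cytoplasmic channels of myelin open, had the highest level of the mature genes, at 233, 206, 221 and 236 CPM in cortical libraries, against 406, 301, 346 and 254 CPM in subcortical libraries. The groups of Cnp did not overlap, but its difference was the smallest of the called genes (log2 fold change -0.54, SE 0.16, edgeR adjusted p = 0.043) and missed the threshold without any 1 of cortical 1 to 4 or subcortical 1 or 3, with edgeR adjusted p of 0.053 to 0.194, and with limma-voom (0.053).

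Mog, Mag, Mal and Ermn were each lower in cortical libraries. Mog, an immunoglobulin-type protein of the outermost myelin layer, stood at 36.5, 14.5, 25.8 and 17.9 CPM in cortical libraries, against 116, 54.4, 67.4 and 80.6 CPM in subcortical libraries, and Mag, an adhesion protein of the layer next to the axon, at 37.2, 44.8, 47.4 and 91.9 CPM in cortical libraries, against 270.4, 119, 184 and 126 CPM in subcortical libraries. Neither gene's groups overlapped. Both fell about as much, Mog by 1.75 (SE 0.29, edgeR adjusted p = 0.00022) and Mag by 1.66 (SE 0.29, edgeR adjusted p = 0.00071) on the log2 scale. Mal, a proteolipid of membrane rafts, stood at 99.3, 55.4, 67.8 and 82.8 CPM in cortical libraries, against 259, 164, 230.2 and 104 CPM in subcortical libraries (log2 fold change -1.31, SE 0.24, edgeR adjusted p = 0.00076). The lowest subcortical library of Mal, mouse 4, was only just above the highest cortical one. Ermn, an actin-binding protein of late oligodendrocytes, stood at 2.96, 8.81, 14.4 and 22.3 CPM in cortical libraries, against 68.2, 29.1, 40.6 and 31 CPM in subcortical libraries (log2 fold change -1.79, SE 0.43, edgeR adjusted p = 0.0091), again without overlap. Its call was lost without subcortical 1 (edgeR adjusted p = 0.064).

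Cldn11, which forms the tight junctions of myelin, and Tspan2, a tetraspanin, overlapped between the regions. Cldn11 stood at 37, 29.8, 51.5 and 33.8 CPM in cortical libraries, against 136, 35.8, 100 and 52.9 CPM in subcortical libraries (log2 fold change -1.09, SE 0.32, edgeR adjusted p = 0.035). The subcortical libraries of mice 1 and 3 were high, and that of mouse 2 lay among the cortical ones. Tspan2 stood at 15, 8.29, 19 and 26.1 CPM in cortical libraries, against 67, 24.4, 60.1 and 17.7 CPM in subcortical libraries (log2 fold change -1.30, SE 0.40, edgeR adjusted p = 0.047), with mouse 4 alone going the other way. Leaving out any 1 of cortical 1, 2 or 4 or subcortical 1 or 3 ended the call of Cldn11 (edgeR adjusted p of 0.090 to 0.228), and leaving out cortical 1, 2 or 3 or subcortical 1 or 3 ended that of Tspan2 (0.106 to 0.233). Limma-voom called neither (adjusted p = 0.078 and 0.121). Gjb1 (connexin 32), the gap junction protein of oligodendrocytes, was not called at 6.16, 4.92, 12.8 and 12.4 CPM in cortical libraries, against 36.8, 9.55, 9.03 and 4.98 CPM in subcortical libraries (log2 fold change -0.72, SE 0.55, edgeR adjusted p = 0.57), and its single high value was subcortical 1.

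**Figure D3:**
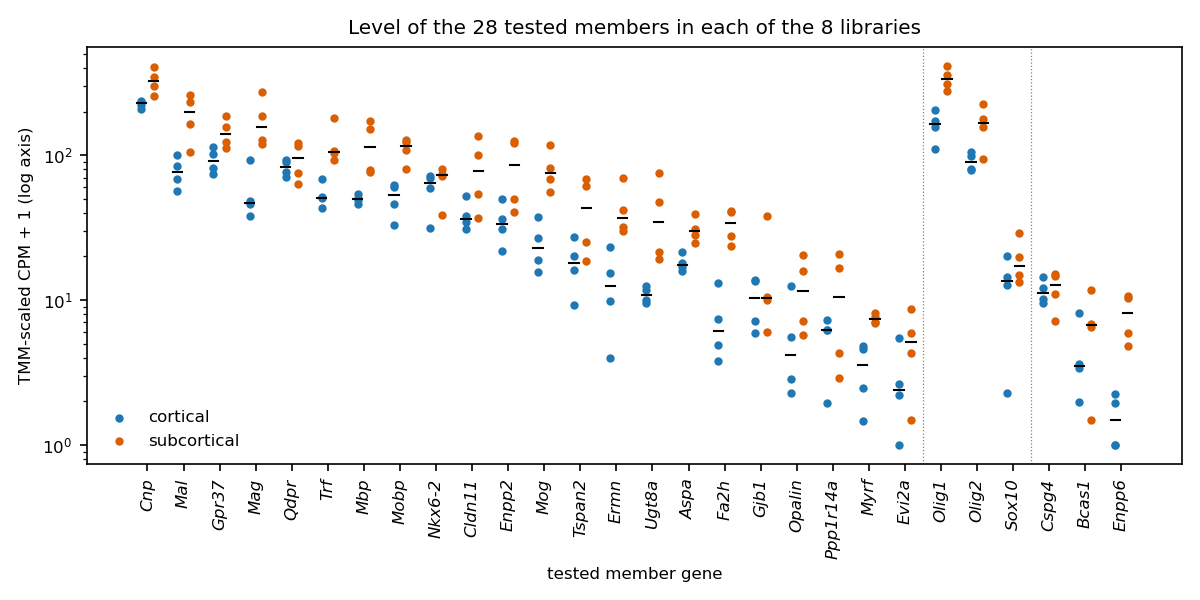
TMM-scaled CPM + 1 (log axis) of the 28 tested genes in each library, cortical (blue, left of each pair) and subcortical (orange), with a black line at the median of 4. Dotted lines part the mature genes, the lineage factors and the precursor genes, each ordered by mean level. Cnp is the highest mature gene and Evi2a the lowest, and Olig1 is the highest lineage factor.

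Fa2h and Ugt8a, both enzymes of myelin lipid, had the lowest log2 fold changes of the 22 tested mature genes. Fa2h, which adds the hydroxyl group to the fatty acids of myelin galactolipids, stood at 6.41, 3.89, 2.79 and 12.2 CPM in cortical libraries, against 39.3, 26.7, 39.9 and 22.7 CPM in subcortical libraries. It was 5.06-fold lower in cortical libraries (log2 fold change -2.34, SE 0.42, edgeR adjusted p = 0.00054), with no overlap. Ugt8a, the enzyme that makes galactosylceramide, stood at 11.6, 9.07, 8.59 and 10.8 CPM in cortical libraries, against 74.4, 20.5, 46.5 and 18.3 CPM in subcortical libraries. It was 3.97-fold lower (log2 fold change -1.99, SE 0.39, edgeR adjusted p = 0.0013), and its 4 cortical values spanned only 8.59 to 11.6 CPM while the subcortical values of mice 1 and 3 stood well above those of mice 2 and 4. Aspa, which cleaves N-acetylaspartate and so frees acetate for lipid synthesis, did not overlap between the regions at 17, 20.5, 16 and 14.8 CPM in cortical libraries, against 27.3, 38.2, 23.6 and 30.2 CPM in subcortical libraries, but was not called (log2 fold change -0.80, SE 0.30, edgeR adjusted p = 0.13).

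Trf, Gpr37 and Enpp2, which other cells of the brain also express, were lower in cortical libraries, while Nkx6-2 and Qdpr were not called. Trf, the iron carrier transferrin, stood at 42.1, 49.5, 50.1 and 68 CPM in cortical libraries, against 181, 92.2, 107 and 102 CPM in subcortical libraries (log2 fold change -1.20, SE 0.23, edgeR adjusted p = 0.0009), without overlap and with subcortical 1 far above the others. Gpr37, an orphan-type receptor of oligodendrocytes, stood at 112, 80.6, 101 and 73.5 CPM in cortical libraries, against 187, 110.3, 157 and 122 CPM in subcortical libraries (log2 fold change -0.65, SE 0.20, edgeR adjusted p = 0.049). Its groups overlapped slightly, and its call was lost with sex as a covariate (edgeR adjusted p = 0.057), with limma-voom (0.057) and without any 1 of cortical 2, 3 or 4 or subcortical 1 or 3 (0.083 to 0.224). Enpp2 (autotaxin), a secreted enzyme made by oligodendrocytes and by the choroid plexus, stood at 48.6, 29.8, 20.7 and 35.2 CPM in cortical libraries, against 119.9, 48.7, 124 and 39.6 CPM in subcortical libraries (log2 fold change -1.31, SE 0.34, edgeR adjusted p = 0.019). Its highest library, subcortical 3, was also the only one with many transcripts of the choroid plexus gene Ttr, at 608 CPM. The other subcortical libraries had 0.41 to 1.91 CPM of Ttr and the cortical ones 0.23 to 23.7 CPM. Subcortical 1 had nearly the same Enpp2 level, at 119.9 CPM, with 0.41 CPM of Ttr. In subcortical 3 the choroid plexus genes Folr1 and Kl had only 3 and 2 counts. The part of the choroid plexus in the Enpp2 level was not tested. Without subcortical 3 the adjusted p of Enpp2 was 0.080, and without cortical 2, 3 or 4 or subcortical 1 it was 0.071 to 0.079. Nkx6-2, a homeobox factor, and Qdpr, which recycles the cofactor tetrahydrobiopterin, showed no difference beyond their spread. Nkx6-2 averaged 57.1 ± 18.8 CPM in cortical libraries, against 65.2 ± 18.6 CPM in subcortical libraries (SD, n = 4 each), with a 95% interval of the log2 difference from -0.75 to 0.36, and Qdpr averaged 81.6 ± 10.1 CPM in cortical libraries, against 92.8 ± 28.9 CPM in subcortical libraries (SD, n = 4 each), with an interval from -0.63 to 0.26.

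The remaining mature genes had few counts. Myrf, the membrane-bound factor that switches on myelin genes, had 38 counts in all over the cortical libraries and 70 over the subcortical ones. It stood at 1.48, 3.63, 0.464 and 3.83 CPM in cortical libraries, against 6.62, 7.16, 5.9 and 6.09 CPM in subcortical libraries, without overlap and without a call (log2 fold change -1.44, SE 0.82, edgeR adjusted p = 0.4). Opalin, a membrane protein of the oligodendrocyte paranode, had 79 counts over cortical and 120 over subcortical libraries, Ppp1r14a, an inhibitor of myosin phosphatase, 72 and 111, and Evi2a 30 and 47. These 3 genes had log2 fold changes of -1.22, -1.21 and -1.17 with SE of 0.68, 0.72 and 1.05 and were not called. Opalin spread from 1.29 to 11.6 CPM among cortical and from 4.71 to 19.4 CPM among subcortical libraries. Ppp1r14a spread from 0.957 to 6.27 CPM and from 1.91 to 19.8 CPM. Hapln2, a link protein of the nodes of Ranvier, had 1, 0, 0 and 6 counts in cortical libraries, against 17, 6, 40 and 2 counts in subcortical libraries. It did not pass the count filter of edgeR and was called lower by DESeq2, but not by edgeR with no filter.

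Of the lineage transcription factors, Olig1 and Olig2 were as abundant as the leading myelin genes, while Sox10 was not. Olig1 (ENSMUSG00000046160) stood at 205, 172, 155 and 109 CPM in cortical libraries, against 412, 308, 359 and 275 CPM in subcortical libraries (log2 fold change -1.08, SE 0.19, edgeR adjusted p = 0.00039). The lowest subcortical value lay above the highest cortical one. Olig2 (ENSMUSG00000039830) stood at 77.9, 97.2, 79.2 and 104 CPM in cortical libraries, against 224, 178, 156 and 93.6 CPM in subcortical libraries (log2 fold change -0.86, SE 0.21, edgeR adjusted p = 0.012). Mouse 4 had nearly the same Olig2 level in both regions, and the call was lost without cortical 3 or subcortical 1 (edgeR adjusted p = 0.055 and 0.086). Sox10, which unlike the Olig factors is confined to the oligodendrocyte lineage within the brain, stood at 19.2, 1.29, 11.6 and 13.4 CPM in cortical libraries, against 28.1, 12.4, 18.8 and 13.8 CPM in subcortical libraries. Sox10 had 189 counts over the cortical and 198 over the subcortical libraries and was not called (log2 fold change -0.68, SE 0.51, edgeR adjusted p = 0.57, 95% interval -1.73 to 0.38). Summed over the 3 factors, the level was 261 ± 33.0 CPM in cortical libraries, against 519.7 ± 116 CPM in subcortical libraries (SD, n = 4 each).

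Precursor genes were close to absent. Pdgfra, the defining receptor of precursors, had 0 counts in 6 of the 8 libraries, with 6 counts in cortical 4 and 5 in subcortical 3. Gpr17, of the premyelinating state, had 0 counts in all 8 libraries, so that it was not detectable at this depth. Bcas1, a protein of early myelinating cells, stood at 0.986, 2.59, 7.2 and 2.39 CPM in cortical libraries, against 10.8, 0.477, 5.56 and 5.81 CPM in subcortical libraries and was not called (log2 fold change -0.78, SE 0.86, edgeR adjusted p = 0.73). Enpp6, a choline phosphodiesterase of newly formed oligodendrocytes, had 5, 0, 0 and 4 counts in cortical libraries, against 12, 8, 27 and 35 counts in subcortical libraries. It was called lower (log2 fold change -3.59, SE 1.06, edgeR adjusted p = 0.038, 95% interval -5.78 to -1.40), but not with the mouse as a block (edgeR adjusted p = 0.054), with limma-voom (0.063), or without cortical 2 or 3 or any 1 subcortical library (0.053 to 0.132). Its fold change rests on 9 cortical counts and is imprecise.

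Cspg4 averaged 10.6 CPM of a precursor sum of 14.8 CPM in cortical libraries, and 10.9 CPM of a sum of 24.0 CPM in subcortical libraries. It stood at 9.12, 11.1, 13.5 and 8.62 CPM in cortical libraries, against 14.1, 6.21, 13.5 and 9.97 CPM in subcortical libraries (log2 fold change -0.05, SE 0.45, edgeR adjusted p = 0.98, 95% interval -0.99 to 0.89), with the regions fully overlapping. Markers of mural cells, which also make Cspg4, were present in all libraries: the 6 genes, led by Rgs5, summed to 748, 1042, 826 and 464 CPM in cortical libraries, against 614, 431, 1203 and 335 CPM in subcortical libraries. Within both regions the same pair of libraries had the highest 2 values of Cspg4 and of this sum, mice 2 and 3 among cortical and mice 1 and 3 among subcortical libraries. This match is not particular to mural markers. Subcortical 1 and 3 also held the highest 2 places for 17 of the 22 tested mature genes. The part of mural cells in the Cspg4 counts was not tested. With Cspg4 left out, the log2 ratio of the precursor sums was -1.64 in place of -0.70.

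Levels of the mature genes moved together across the subcortical libraries. Subcortical 1 was the highest of its region for 15 of the 22 tested mature genes and lay above the region mean for 21, and subcortical 3 was the highest for 5 and above the mean for 16. Both together held the highest 2 places for 17 of the 22. Subcortical 2 and 4 were each the lowest for 10 genes. The lineage factors followed the same libraries, with subcortical 1 the highest for 3 of 3 and subcortical 4 the lowest for 2. Mice 1 and 3 are of different sex. Reads assigned to no feature were 31.5 and 30.2% in subcortical 1 and 3, against 40.7 and 36.3% in subcortical 2 and 4, and their part in this order was not tested. In cortical libraries the order was weaker. Cortical 1 and cortical 4 were the highest for 8 and 9 of the 22 mature genes, and no pair held the highest 2 places for more than 6. Cortical 4 lay above the region mean for 15 of the 22. Cortical 2 was the lowest for 9 and lay above the mean for 6. The mature sums spanned 1.19-fold among cortical and 1.93-fold among subcortical libraries. Per gene, the median coefficient of variation was 33.8% in cortical and 38.5% in subcortical libraries, and it was larger in subcortical libraries for 13 of the 22 genes. With 4 libraries per region these are descriptions, and levels within a library share its depth and scaling.

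**Figure D4:**
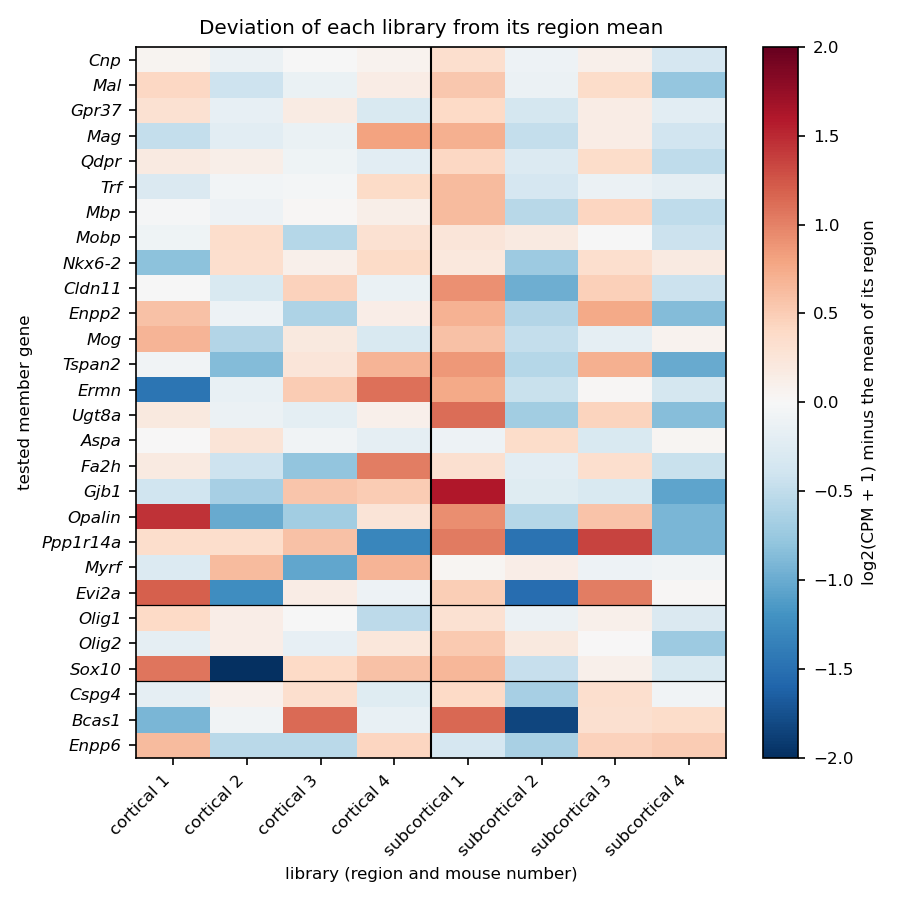
Deviation of log2(CPM + 1) of each tested gene (rows) in each library (columns, cortical left, subcortical right) from the mean of its region, red above and blue below. Horizontal lines part the mature genes, lineage factors and precursor genes. Subcortical 1 is above its region mean for 21 of 22 mature genes and subcortical 2 for 3, and the cortical columns show no column of 1 colour.

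Of 40 further oligodendrocyte genes, 36 were tested, of which 9 fell in cortical libraries, 0 rose and 27 were not called, with a median log2 fold change of -0.65. Over all tested genes, 3.58% fell and 3.57% rose, with a median of -0.01. The count of 9 further genes that fell was 4 without subcortical 1. Gjc3, a connexin gene of the lineage, had the largest difference among the further genes named here. Gjc3 stood at 7.15, 9.85, 4.18 and 12.7 CPM in cortical libraries, against 95.5, 82.1, 56.2 and 59.2 CPM in subcortical libraries (log2 fold change -3.11, SE 0.32, edgeR adjusted p = 2e-07), without overlap. Sept4, a septin gene, Apod, which encodes a lipid-binding apolipoprotein, and Tmem88b had log2 fold changes of -1.22 (SE 0.19), -1.26 (SE 0.28) and -0.99 (SE 0.25), with edgeR adjusted p of 9.8e-05, 0.0049 and 0.012. Apod and Tmem88b had subcortical 1 as their highest library, like most mature genes, and neither was called without it (edgeR adjusted p = 0.070 and 0.111).

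Of 23 further genes known from precursors, 17 were tested, of which 4 rose in cortical libraries, 2 fell and 11 were not called, with a median log2 fold change of -0.04. Over all tested genes, 3.57% rose and 3.58% fell, with a median of -0.01. Among the 4 precursor genes that rose were Cspg5, Rlbp1 and Vcan, and the 2 that fell were Cacng4 and Sulf2. The call of Cacng4 was lost without cortical 3 or subcortical 1 (edgeR adjusted p = 0.051 and 0.052), and that of Sulf2 without any 1 of cortical 1, 3 or 4 or subcortical 1, 2 or 4 (0.051 to 0.149). Cspg5, a transmembrane proteoglycan gene of the brain that astrocytes also express, stood at 1903, 1918, 1579 and 1383 CPM in cortical libraries, against 539, 415, 428 and 425 CPM in subcortical libraries (log2 fold change 1.91, SE 0.16, edgeR adjusted p = 4.4e-09). Vcan, the versican gene, stood at 19, 20.5, 17.9 and 37.8 CPM in cortical libraries, against 10.8, 3.82, 2.43 and 9.97 CPM in subcortical libraries (log2 fold change 1.80, SE 0.46, edgeR adjusted p = 0.013), with the call lost without cortical 4 (edgeR adjusted p = 0.086). The 4 genes that rose thus went against the direction of the mature genes.

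Markers of other cell types were found beside these transcripts. The 10 microglial markers summed to 254 ± 90.5 CPM in cortical libraries, against 168 ± 40.7 CPM in subcortical libraries (SD, n = 4 each). The 10 neuronal markers summed to 121 ± 32.5 CPM in cortical libraries, against 105 ± 26.5 CPM in subcortical libraries, and the 7 endothelial markers to 6.37 ± 1.84 CPM in cortical libraries, against 6.10 ± 7.14 CPM in subcortical libraries (SD, n = 4 each). Within the neuronal list, Nefl, a neurofilament gene, fell (12.01 ± 3.65 CPM in cortical libraries, against 39.7 ± 16.1 CPM in subcortical libraries, SD, n = 4 each, log2 fold change -1.71, edgeR adjusted p = 0.0019), in all 4 mice and without overlap. Slc17a7, the vesicular glutamate transporter gene of cortical excitatory neurons, rose (15.7 ± 11.3 CPM in cortical libraries, against 1.14 ± 0.894 CPM in subcortical libraries, SD, n = 4 each, log2 fold change 3.77, edgeR adjusted p = 0.0012). Of the other lists, 3 microglial genes (Cx3cr1, Csf1r and C1qa) rose, and the fibroblast gene Col1a2 and the ependymal gene Foxj1 fell, Foxj1 in all 4 mice (log2 fold change -1.45, edgeR adjusted p = 0.0042). Ccdc153 and Tmem212, the other tested genes of the Foxj1 list, were not called. Their log2 fold changes were -0.09 and 0.26 (edgeR adjusted p = 0.96 and 0.89). Over all tested genes, 3.57% rose and 3.58% fell. The endothelial genes Cdh5 and Tek had 0 counts in all libraries. The sum of the 4 fibroblast markers, of which Lum had 0 counts, moved in the direction of the myelin genes, with 61.5 to 97.9 CPM in cortical libraries, against 142 to 209 CPM in subcortical libraries. Col1a2 made most of it, on average 62.0 of 81.1 CPM in cortical and 131 of 170 CPM in subcortical libraries. Col1a1 was not called (log2 fold change -0.95, edgeR adjusted p = 0.17), and Dcn did not pass the count filter. Ependymal and choroid plexus markers summed to 22.0 to 54.0 CPM in cortical libraries, against 45.4, 48.4, 76.9 and 653.2 CPM in subcortical libraries. The last value is that of mouse 3, and Ttr alone made 608 CPM of it. From high to low, the subcortical neuronal sums had the order of the mature sums, mouse 1, 3, 2 and 4. The order was mouse 3, 1, 2 and 4 for mural, 3, 1, 4 and 2 for endothelial, 2, 3, 4 and 1 for fibroblast, 3, 2, 1 and 4 for ependymal and choroid plexus, and 2, 4, 1 and 3 for microglial markers. The part of these cells in the difference of the mature genes was not tested.

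**Figure D5:**
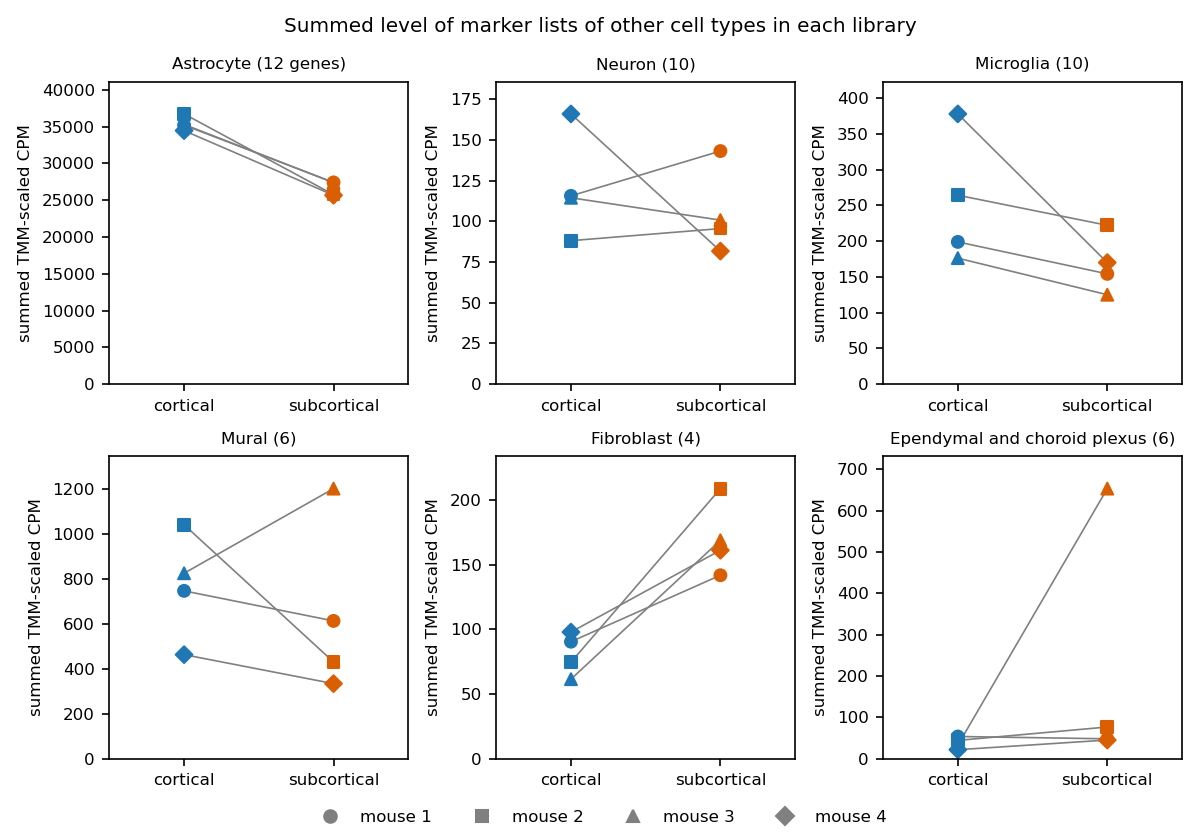
Summed TMM-scaled CPM (vertical axis, from 0) of marker lists of astrocytes and of 5 groups of other cells in cortical (left, blue) and subcortical (right, orange) libraries, with the symbol giving the mouse and grey lines joining its 2 libraries. Fibroblast sums are higher in the subcortical library of all 4 mice, and mural and neuronal sums overlap between the regions. Subcortical 3 stands at 653 CPM of ependymal and choroid plexus markers, of which Ttr alone makes 608 CPM.

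The sexes were compared because the labels give both and the title of the series names female mice. On counts summed per mouse, 2 females against 2 males, 0 of the 28 genes passed edgeR's adjusted p of 0.05 and 1 had an unadjusted p under 0.05, as did 3.63% of all tested genes. Over all genes tested, 0.0373% were called by sex. The 1 gene was Mog, with a log2 fold change, female minus male, of -0.66 (unadjusted p = 0.037, edgeR adjusted p = 0.999). The region difference did not pass a test of its difference between the sexes for any of the 28 genes either, with 0 called among them and 0% of all tested genes, and 1 gene, Fa2h, with an unadjusted p of 0.049, where 3.34% of all tested genes had one under 0.05. Fa2h had a log2 fold change, cortical minus subcortical, of -3.32 in females and -1.72 in males. Tested in each sex with 2 libraries a region, 5 of the 28 genes were lower in cortical libraries of females and 4 in those of males, where 1.15% and 1.36% of all tested genes were called lower. A p that misses the threshold in groups of 2 mice does not show that the sexes are alike.

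Promoters were looked up because the mature genes fell together and Sox10 is a known activator of many myelin genes. RefSeq windows of 300 bases on GRCm38.p6, from 250 bases before to 50 after a start, were at hand for 17 of the 23 mature genes, in 23 windows. The 2 forms of the Sox core motif searched were ACAAAG and ACAATG, on both strands. At least 1 of them lay in 10 of the 23 windows, of 8 of the 17 genes, while 28.6% of all 32851 RefSeq windows hold at least 1. That share is per window and not per gene. The matching windows of Mag overlap and hold the same site. Among the 8 genes, Opalin and Gjb1 were not called and Hapln2 was not tested. The E-box CAGCTG, a form bound by Olig-type factors, was found in 3 of the 23 windows and in 16.3% of all windows. Mobp held 6 copies of ACAAAG, all read on the opposite strand as CTTTGT, Cnp and the first window of Mag 1 each, and Mog none. Windows of these 4 called genes are shown because they span that range, with the matches in capitals.
Mobp promoter (chr9:120149492-120149791, plus strand): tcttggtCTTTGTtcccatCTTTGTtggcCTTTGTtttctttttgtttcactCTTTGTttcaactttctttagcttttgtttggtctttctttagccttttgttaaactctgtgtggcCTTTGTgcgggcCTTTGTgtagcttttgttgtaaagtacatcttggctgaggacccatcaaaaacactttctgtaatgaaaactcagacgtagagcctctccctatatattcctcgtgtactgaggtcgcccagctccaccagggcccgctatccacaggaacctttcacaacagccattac
Cnp promoter (chr11:100574689-100574988, plus strand): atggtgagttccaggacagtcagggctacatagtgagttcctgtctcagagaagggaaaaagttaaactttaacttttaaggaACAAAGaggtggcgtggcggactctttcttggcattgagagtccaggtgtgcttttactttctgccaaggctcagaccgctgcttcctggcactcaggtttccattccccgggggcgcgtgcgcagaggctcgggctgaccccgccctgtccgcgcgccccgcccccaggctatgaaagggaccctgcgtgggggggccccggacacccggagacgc
Mag promoter (chr7:30914814-30915113, minus strand): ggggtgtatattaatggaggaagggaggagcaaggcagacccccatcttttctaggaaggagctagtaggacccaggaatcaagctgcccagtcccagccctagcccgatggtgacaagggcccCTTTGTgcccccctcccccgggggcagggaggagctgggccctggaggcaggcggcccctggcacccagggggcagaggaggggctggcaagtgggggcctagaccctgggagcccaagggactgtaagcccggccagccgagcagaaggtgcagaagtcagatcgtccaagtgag
Mog promoter (chr17:37023349-37023648, minus strand): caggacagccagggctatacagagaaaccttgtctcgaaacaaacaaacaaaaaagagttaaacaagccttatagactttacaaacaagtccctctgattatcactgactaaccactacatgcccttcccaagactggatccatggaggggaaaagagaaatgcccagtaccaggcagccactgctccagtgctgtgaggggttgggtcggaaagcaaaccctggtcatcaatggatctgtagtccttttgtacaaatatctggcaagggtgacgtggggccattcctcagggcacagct
A match is a description of the letters in a window and not evidence of binding.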

How the data were processed

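RNA was measured in 8 libraries of sorted astrocytes. Per the labels' protocols, RNA was isolated with a Qiagen RNeasy Plus Micro kit and read with forward QuantSeq 3′ mRNA libraries (Lexogen). STAR 2.6.0, HTSeq 0.9.0, FastQC 0.11.5, DESeq2 1.35.0 and the build GRCm39 appear in the submitters' processing notes. The sources used here do not say whether strand or molecular identifiers were used, so overlapping and antisense genes are uncertain. Raw counts per gene, 1 file per sample, were deposited by the authors and used unchanged. The 5 closing HTSeq rows stayed out. Reads assigned to no feature were 30.2 to 40.7% of a library and ambiguous reads 0.38 to 0.55%. A table of normalized values was left aside. Identifiers gave a symbol for 52083 of 55417 rows.

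The region test was edgeR 4.0.16 in R 4.3.3. Genes were kept by filterByExpr at its minimum of 10 counts per library of median size in 4 libraries and a total of 15. The fit used TMM factors, robust dispersions and the quasi-likelihood test, 4 libraries against 4, with Benjamini-Hochberg adjustment over 11781 genes at 0.05. It called 843 genes. Sex was tested on counts summed per mouse, and the interaction in a fit with a mean per sex and region. The fit was tested on simulated data. Alternatives were median-ratio (RLE) size factors, DESeq2 1.42.0, limma-voom 3.58.1, other filters, TMM factors that leave out mitochondrial, lineage and other-cell genes, the mouse as a block, sex as a covariate and each library left out.

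The mouse numbers pair the samples, since same-numbered samples come from the same animal. Deviations from the region means correlated over genes at 0.0248 to 0.0657 within mice and at -0.0936 to 0.0523 between mice. The samples of a region are different animals. All members are reported, and of the further lists those called genes with the smallest p, up to 6 per list, of which some are not reported here. The members and lists were chosen with earlier results of these data known.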

Additional observations from a re-analysis of the deposited data

Results flagged for a closer look

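In 80 groups of 4 libraries (genes and marker sums, each within a region) the highest or lowest library was set against the rest by Dixon's gap ratio, which chance alone exceeds in about 1 of 20 groups, and 5 values exceeded it. Gjb1 stood at 36.8 CPM and Trf at 180.7 CPM in subcortical 1, each far above the other 3 subcortical libraries. Pdgfra was above 0 in a single library of each region, at 1.44 CPM in cortical 4 and at 1.74 CPM in subcortical 3. A group with a single value above 0 always has a ratio of 1.0, so the rate by chance does not apply to Pdgfra. The summed ependymal and choroid plexus markers reached 653.2 CPM in subcortical 3, of which Ttr alone made 608 CPM.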

How the results depend on the processing

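No alternative turned the direction of any of the 17 called genes. Mbp, Mobp, Mog, Mag, Mal, Fa2h, Ugt8a, Trf and Olig1, 9 of the 17, kept their call under all 16 alternatives, and the other 8 lost it under at least 1. With the mouse as a block 16 of the 17 genes were called, the exception being Enpp6 (log2 fold change -3.96, edgeR adjusted p = 0.054). The block, limma-voom and the filter of 5 CPM each left 0 precursor genes lower. On raw totals the log2 ratio of the summed mature genes was -0.79 in place of -0.99. That of the lineage factors was -0.78 in place of -0.99, and that of the precursor genes -0.53 in place of -0.70. Without Cspg4 the log2 ratio of the precursor genes was -1.64, which rests mostly on Enpp6 with its 9 cortical counts. Leaving out single libraries left 8 to 14 mature genes, 1 to 2 lineage factors and 0 to 1 precursor genes lower, 4 to 10 further oligodendrocyte genes lower and 0 to 3 further precursor genes lower. Of the genes not called, 3 changed sign in such fits, where the log2 fold change ranged from -0.38 to 0.0101 for Nkx6-2, from -0.238 to 0.0872 for Cspg4 and from -1.02 to 0.22 for Gjb1. The cause of these changes was not tested. Depth limits the genes of few counts most, among them Pdgfra, Gpr17, Hapln2, Enpp6 and Evi2a.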
